A study of Homo sapiens with 3 samples.

Results

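The human assembly hg19 keeps sequence that could not be placed on a chromosome on separate contigs, named gl and a number. Peaks of ΔNp63α and ZNF148 on these contigs were chosen by the contig name alone, and 257 of the 61591 rows in both peak lists met that rule. The p63 list gave 118 of its 21922 rows and the ZNF148 list 139 of its 39669. One unplaced contig, gl000220, held 75 rows of each list and is described apart from the other contigs, which held 43 p63 rows and 64 ZNF148 rows. The label of this contig as ribosomal DNA is general knowledge of the assembly and was checked here only through the repeat distance given below.

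Both proteins were mapped by ChIP-seq, which sequences the DNA fragments that an antibody recovers with its target and calls peaks where they pile up. The cells were FaDu, an established line from a pharyngeal squamous cell carcinoma, and were untreated. The groups are 1 library with an anti-ΔNp63α antibody, 1 with an anti-ZNF148 antibody and 1 input library without antibody, and the 2 antibody libraries have 1 peak list each. Per the labels' protocols each library drew on 3 separate immunoprecipitations, but the lists do not keep them apart. There is thus no spread between replicates and no p-value for any comparison.

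Ribosomal DNA consists of tandem repeats on the short arms of the acrocentric chromosomes. Each repeat holds a transcribed unit, from which RNA polymerase I makes the precursor of the 18S, 5.8S and 28S ribosomal RNAs, and a spacer. A genome carries many such repeats while an assembly shows few, so reads from all of them gather on the copies that the assembly has. ΔNp63α is the N-terminally truncated p63 of basal squamous cells and binds as a member of the p53 family. ZNF148 is a zinc finger factor that binds GC-rich DNA.

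Each peak has a deposited fold enrichment at its summit, the position where fragments pile up highest. The fold is (pileup + 1)/(background + 1), where the pileup counts ChIP fragments over the summit and the background is the number expected from the control. Together with the deposited Poisson p this gives both numbers. A whole pileup was found for 100% of the rows of each list, within 0.002 of the deposited −log10 p. The lowest background in a list was 1.27 fragments for p63 and 0.386 for ZNF148. The worth of 1 control fragment after scaling, taken as the difference between the 2 most frequent backgrounds clearly above the lowest, was 0.989 fragments in the p63 list and 0.300 in the ZNF148 list. Many backgrounds are whole multiples of it and many are not, so a background divided by it is a level in control fragments and not a count. On that scale, and per bp of the shortest peak (149 bp for p63 and 150 bp for ZNF148), the lowest background was 0.00859 in both lists. The ratio of the 2 worths, 3.30 for p63 over ZNF148, is that of the read numbers of the 2 libraries if both were scaled to 1 control. Intervals on single folds below are exact 95% Poisson intervals of the pileup with the background held fixed. They and the Wilson intervals on shares cover counting error only.

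Peaks on gl000220 stood on a high background. Counting rows with the same start and end as 1 peak, the p63 list had 31 peaks there and the ZNF148 list 40. Their median pileup was 128 fragments for p63 over a median background of 51.4, and 68.5 fragments for ZNF148 over 15.2. On the scale of control fragments the median background was 52.0 for p63 and 50.9 for ZNF148. On chromosomes 1 to 22 and X the median pileup was 38 fragments for p63 and 14 for ZNF148, over backgrounds of 1.77 and 0.418. A background of 10 or more was found for 29 of the 31 p63 peaks on gl000220, against 0.618% of the whole list, and for 37 of the 40 ZNF148 peaks, against 0.286% of the whole list. All the p63 peaks with such a background numbered 134, of which gl000220 held 21.6%. For ZNF148 they numbered 109, of which it held 33.9%.

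**Figure D1:**
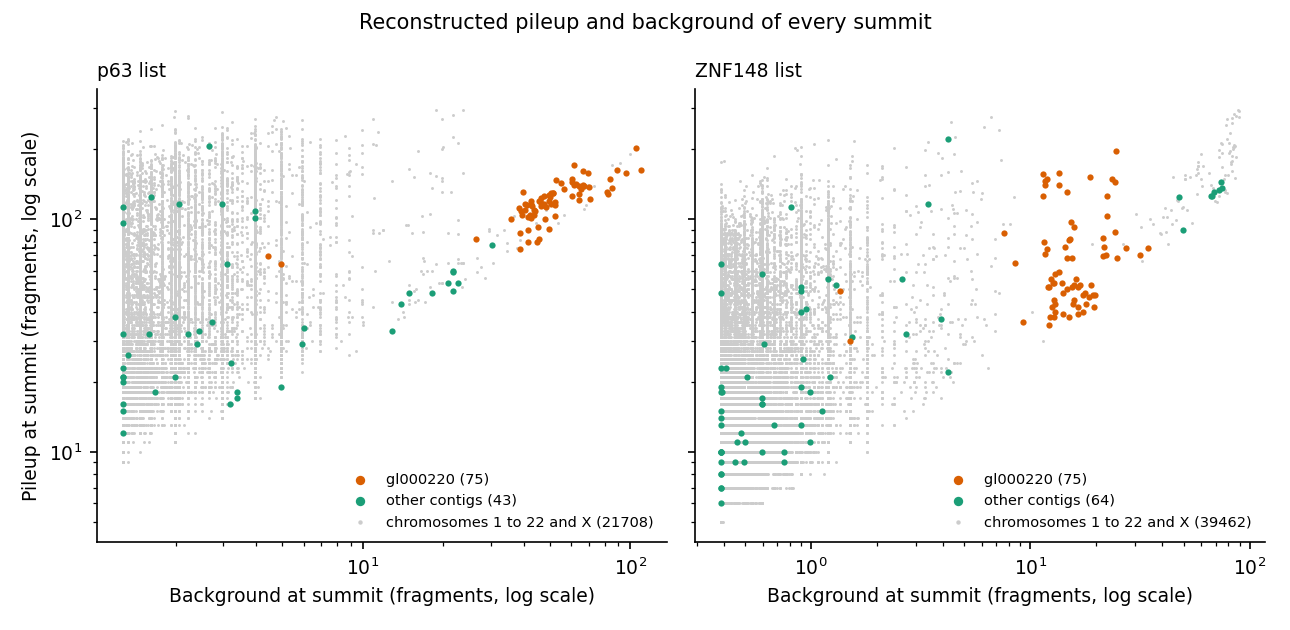
Each point is 1 summit, with the background (x, fragments, log scale) and the pileup (y, fragments, log scale) reconstructed from the deposited values, for p63 on the left and ZNF148 on the right. Orange points are the 75 summits of each list on gl000220, green points those on other contigs and grey points those on chromosomes 1 to 22 and X. The gl000220 summits lie to the right of most others in both panels, and in the ZNF148 panel part of them lie well above the other gl000220 summits of like background.

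The enrichment over that background was low for p63 and mixed for ZNF148. The median fold on gl000220 was 2.42 for p63 (quartiles 1.82 and 2.68) and 3.98 for ZNF148 (2.90 and 6.04). On chromosomes 1 to 22 and X it was 13.2 for p63 (8.40 and 24.5) and 9.83 for ZNF148 (7.21 and 16.6). A fold under 5 was found in 93.5% of the p63 peaks on gl000220 (95% Wilson interval 79.3 to 98.2%), against 2.29% of the whole p63 list. For ZNF148 the share was 60.0% (44.6 to 73.7%), against 1.88% of the whole ZNF148 list. Among all contig peaks the values nearest to this limit were 4.97 and 5.74 for p63 and 4.44 and 5.05 for ZNF148. Both lists start at a −log10 q just above 3, which lets folds well under 5 be listed only over a higher background. The contrast in these shares is thus tied to the high background and is not a separate result on enrichment. How much of it the background accounts for was not tested. By q value, 0 of the 31 p63 peaks on gl000220 were among the best 10% of their list, and the best ranked 7755 of 21686. For ZNF148 it was 6 of 40, and the best ranked 1588 of 38053. The lowest pileup on gl000220 was 64 fragments for p63 and 30 for ZNF148, so every peak there stood above the median pileup of the chromosomes in its list. Over the high background of most of these peaks, the q limit already requires such a pileup.

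The peaks of gl000220 were not spread evenly along it. Before position 101829 each list had 2 peaks, all with a background under 5 fragments. For p63 they lay at chrUn_gl000220:17198-17446, with a fold of 10.9 (8.46 to 13.9) from 64 fragments over 4.94, and at chrUn_gl000220:51958-52186, with a fold of 12.9 (10.1 to 16.3) from 69 over 4.42. For ZNF148 they lay at chrUn_gl000220:83020-83329, with a fold of 12.4 from 30 fragments over 1.498, and at chrUn_gl000220:93666-93954, with a fold of 21.3 (15.9 to 28.0) from 49 over 1.35. Both of these p63 folds exceed every other p63 fold on the contig, and none of these 4 peaks overlapped a peak of the other list.

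From position 101829 on, p63 peaks no more than 5000 bp apart formed 3 runs. The 2 longest, from 101829 to 118954 and from 145844 to 161724, are called the first and the second block, a choice made after the positions had been seen. The shortest run, 7 p63 peaks from 125654 to 133271, lies between them. The first block held 37 p63 summits and 30 ZNF148 summits, and the second 28 and 32. Peaks covered 67.5% of the first block for p63 and 61.9% for ZNF148, and 69.3% and 58.5% of the second. Between the blocks lay 8 p63 summits and 11 ZNF148 summits, and the peaks covered 6.09% and 13.4% of that stretch. The RefSeq gene table of another build, GRCh38.p14, lists a 45S precursor gene of 13357 bases, RNA45SN5, on unplaced sequence, with the 18S gene RNA18SN5 (1869 bases), the 5.8S gene RNA5-8SN5 (157 bases) and the 28S gene RNA28SN5 (5070 bases). No hg19 annotation was used here, so no summit is assigned to one of these genes.

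**Figure D2:**
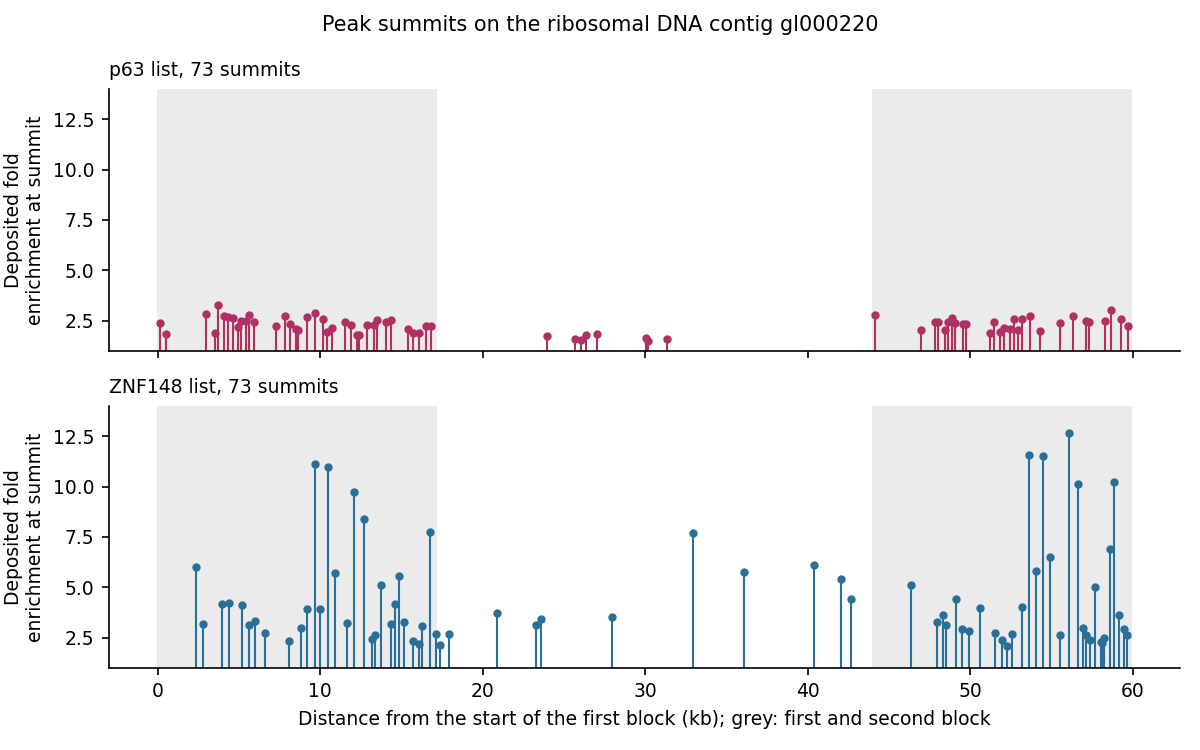
Each stem is 1 of the 73 summits of a list from the first block on, at its distance from the start of the first block (x, kb), and reaches from a fold of 1 to its deposited fold enrichment (y), with p63 above and ZNF148 below. Grey marks the first and the second block. The p63 folds stay between 1.47 and 3.25, while ZNF148 folds reach 11.1 in the first block, 7.68 between the blocks and 12.6 in the second block.

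Within the blocks p63 gave many summits of low fold. The p63 folds ran from 1.77 to 3.25 in the first block (median 2.36) and from 1.89 to 3.02 in the second (median 2.41). The highest was at position 105557, in a peak of 10 summits from 105262 to 107875, with a fold of 3.25 (2.72 to 3.86) from 131 fragments over 39.6. The summit at 105335 in the same peak had 1.90 (1.52 to 2.36). These are the highest and the lowest of its 10 summits, and their intervals leave out the error of the background. Whether heights within the peak differed beyond counting error was thus not tested. The most significant p63 peak of the blocks was at chrUn_gl000220:145844-146049, with a fold of 2.76 (2.36 to 3.20), 171 fragments over 61.3 and a −log10 q of 27.1. The longest, from 152948 to 156597, also had 10 summits, the best with a fold of 2.56 (2.16 to 3.01). Several summits were found in 51.6% of the p63 peaks on gl000220 and in 0.846% of those on chromosomes 1 to 22 and X. Among the 10 most significant p63 peaks of the contig the other 5 had folds of 2.41 to 2.88, and their intervals overlapped one another.

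ZNF148 had summits of distinct height in the same blocks. Its folds ran from 2.17 to 11.1 in the first block (median 3.63) and from 2.10 to 12.6 in the second (median 3.20). A fold of 5 or more was reached by 9 ZNF148 summits in each block and by no p63 summit in either. The most significant ZNF148 peak on the contig, chrUn_gl000220:157615-159046, had its best summit at 157888 with a fold of 12.6 (10.8 to 14.8), 156 fragments over 11.4 and a −log10 q of 112.7. The nearest p63 summit lay 240 bp away and had a fold of 2.76. The next peaks were chrUn_gl000220:110501-112886, with a fold of 11.0 (9.34 to 12.8) at 112332, and chrUn_gl000220:155291-156873, with a fold of 11.6 (9.79 to 13.6) at 155460. They were followed within the blocks by chrUn_gl000220:113089-114781 (fold 9.73, 8.19 to 11.5) and chrUn_gl000220:117778-119257 (fold 7.75, 6.58 to 9.08). The ninth by q, chrUn_gl000220:159163-161048, had 8 summits and a highest fold of 10.2 (8.22 to 12.6). The intervals of these ZNF148 summits lie above those of all p63 summits in the blocks.

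The stretch between the blocks also differed between the lists. Its 8 p63 summits lay between 125768 and 133154 and had folds of 1.47 to 1.82, over backgrounds of 70.4 to 109.8 fragments. Its 11 ZNF148 summits had folds of 2.14 to 7.68, over backgrounds of 21.5 to 34.5. The 2.14 and the 34.5 belong to the summit at 119192, in a peak that begins in the first block. The other 10 had folds from 2.69 and backgrounds up to 27.3. The strongest was at chrUn_gl000220:134403-135046, with a fold of 7.68 (6.65 to 8.83) from 195 fragments over 24.5. It was followed by chrUn_gl000220:142017-142385 (fold 6.09, 5.15 to 7.15) and chrUn_gl000220:137744-138087 (fold 5.74, 4.84 to 6.75). No p63 peak overlapped a ZNF148 peak in this stretch, and the p63 summit nearest to the strongest ZNF148 summit was 1600 bp away with a fold of 1.59. In control fragments the median background of these summits was 85.4 in the p63 list and 78.3 in the ZNF148 list, above the 48.9 and 49.4 of the first block.

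Summits of the first block recurred in the second at a fixed distance, for ZNF148 with like folds. Over both lists, the distance of at least 1000 bp that recurred most often between summits of one list was 43964 bp, with 27 pairs within 25 bp of it, against a median of 6 over all distances tried. ZNF148 alone gave the same distance with 15 pairs, while p63 alone had 12 pairs at 3831 bp and as many at 43964 bp. With matching within 10 and 100 bp, 1578 and 1099 bp came first over both lists. Among distances of at least 10000 bp, p63 alone and these 2 settings gave 43944 to 43974 bp. Ribosomal repeats are known to be of about this length. Of the 36 p63 summits on the contig with room for a copy at that distance 12 had one, and of the 28 ZNF148 summits 15. Both totals include the 2 summits of each list that lie before the first block. For ZNF148 the heights of the copies went together (Spearman's rho 0.89 across 15 pairs of sites, which are not independent replicates). The summit at 111498 had a fold of 11.1 (9.36 to 13.1) and its copy at 155460 one of 11.6 (9.79 to 13.6). The summit at 112332 had 11.0, and its copy at 156300 had 11.5. At 113909 the fold was 9.73 (8.19 to 11.5), and at 157888 it was 12.6 (10.8 to 14.8).

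Counting intervals of both copies overlapped in 13 of the 15 ZNF148 pairs and in 11 of the 12 p63 pairs. The 2 ZNF148 exceptions lay next to each other, and their pileups were close. The summits at 116684 and 160672 had 92 and 87 fragments but backgrounds of 15.8 and 7.59, which gave folds of 5.55 and 10.2. Those at 116442 and 160414 had 68 and 65 fragments over 15.5 and 8.54, with folds of 4.18 and 6.92. The p63 exception was the pair at 114182 and 158128, with folds of 1.78 and 2.76. Across the 12 p63 pairs the folds did not rise together (rho −0.36), over a range of 1.78 to 2.83 in the first copy. The copies share one library and nearly one sequence, and a read that matches both can be placed on either, so like heights of the copies and shared reads cannot be told apart.

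**Figure D3:**
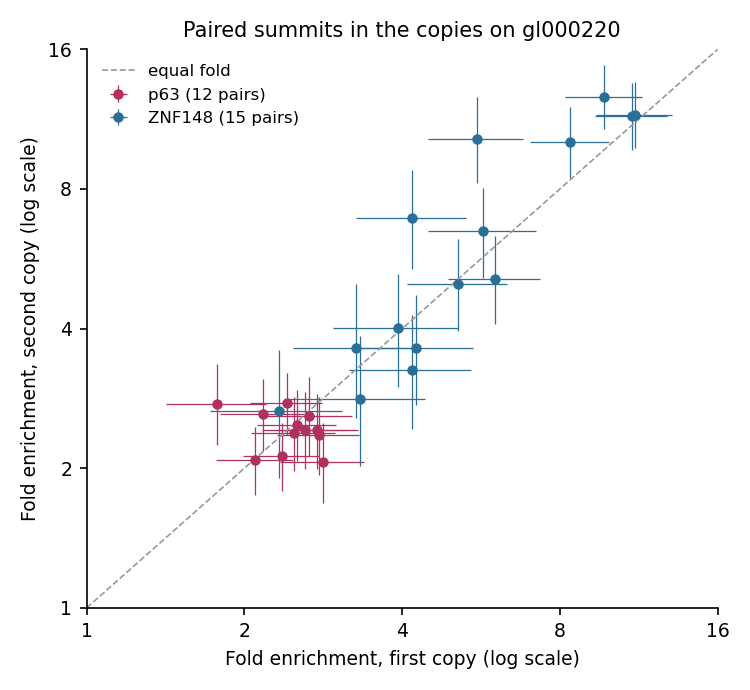
Each point is a pair of summits of one list 43964 bp apart within 25 bp, with the fold enrichment of the first copy (x, log scale) against that of the second (y, log scale). Bars are exact 95% Poisson intervals of the pileup and the dashed line marks equal folds. The 15 ZNF148 pairs spread along the line from 2.33 to 11.1 in the first copy, and the 12 p63 pairs lie between 1.78 and 2.83. The bars of 4 ZNF148 and 3 p63 pairs clear the line, and in 2 of each the counting intervals of both copies still overlap.

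An overlap of 1 bp or more with ZNF148 was found for 18 of the 31 p63 peaks on gl000220, which is 58.1% (40.8 to 73.6%), against 21.4% of the whole p63 list. Counted from ZNF148, 24 of its 40 peaks met p63, which is 60.0% (44.6 to 73.7%), against 12.2% of the whole ZNF148 list. All of these overlaps lay in the blocks, where peaks of each list cover at least 58.5% of the sequence. Where 50% of both peaks had to be covered, the p63 share was 19.4%, against 18.1% of the whole p63 list. Summits of both lists lay within 25 bp of each other in 4 of the 31 p63 peaks, which is 12.9% (5.13 to 28.9%), against 13.7% of the whole p63 list. The same 4 pairs made 10.0% of the 40 ZNF148 peaks, against 7.81% of the whole ZNF148 list. Both shares are near the background, but a peak counted here if any of its summits was close. Several summits were found in 51.6% of p63 peaks on gl000220, against 0.846% on chromosomes 1 to 22 and X. The shares are therefore not on like terms, and by summit the 4 were among 75 p63 summits. Within 50 bp the p63 share was 32.3%, against 16.3% of the whole p63 list, with the same limit. The reading thus also depends on the distance allowed. The median distance between a summit and the nearest one of the other list, in overlapping peaks, was 42 bp for p63 peaks on gl000220, against 15 bp on chromosomes 1 to 22 and X. Overlapping p63 peaks on gl000220 had a median fold of 2.53, and those without overlap 1.82, while for ZNF148 the medians were 3.48 with and 4.78 without overlap. The 7 p63 and 10 ZNF148 peaks between the blocks were all without overlap. On gl000220 this split thus also separates stretches of different background. On chromosomes 1 to 22 and X overlapping peaks had the higher median in both lists, with 26.2 and 11.7 for p63 and 23.8 and 9.26 for ZNF148.

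The closest pair of summits on the ribosomal contig showed unequal folds. The p63 summit at 111503 had a fold of 2.88 (2.37 to 3.46) from 112 fragments over 38.3. The ZNF148 summit 5 bp away at 111498 had a fold of 11.1 (9.36 to 13.1) from 140 fragments over 11.7. In control fragments the backgrounds of this pair were 38.7 for p63 and 39.0 for ZNF148. At the other 3 close pairs the folds were 2.77 for p63 and 3.14 for ZNF148, 1.87 and 2.33, and 1.91 and 2.17. ZNF148 had the higher fold at all 4, but at these other 3 pairs the counting intervals of both folds overlapped. The background in control fragments of p63 divided by that of ZNF148 was between 0.993 and 1 at each of the 4. In fragments the ZNF148 backgrounds were lower, 11.7 to 31.8 against 38.3 to 104.8 for p63. Over a lower background the q limit requires a higher fold. How far this limit accounts for the higher ZNF148 folds was not tested.

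The other contigs lay between gl000220 and the chromosomes in background and in the share of low folds. They numbered 36, of which 11 are assigned to a chromosome without a position and 25 are unplaced, and 16 had peaks of both lists, 7 of p63 alone and 13 of ZNF148 alone. The median fold was 8.82 for the 41 p63 peaks (quartiles 4.06 and 13.1) and 8.88 for the 63 ZNF148 peaks (6.59 and 15.1). Median backgrounds were 2.65 fragments for p63 and 0.674 for ZNF148, under the values of gl000220 and above the 1.77 and 0.418 of the chromosomes. A background of 10 or more was found for 9 of the p63 peaks, which is 21.95% against 0.618% of the whole list, and for 8 of the ZNF148 peaks, which is 12.7% against 0.286%. A fold under 5 was found in 34.1% of the p63 peaks (21.6 to 49.5%), against 2.29% of the whole list, and in 14.3% of the ZNF148 peaks (7.70 to 24.97%), against 1.88%. Both intervals lie above the whole-list share, but they treat peaks as independent. Of the 9 ZNF148 peaks with a fold under 5, 7 lay on chrUn_gl000226 alone. That contig and chr9_gl000199_random held all 8 ZNF148 peaks with a background of 10 or more. The ZNF148 shares thus describe these few contigs and not the others. As on gl000220, the q limit lets folds well under 5 be listed only over a higher background. The shares of folds under 5 are thus not a result separate from the background here either. Among the best 10% of their list by q were 3 of the 41 p63 peaks and 6 of the 63 ZNF148 peaks.

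On these contigs 12 p63 peaks overlapped a ZNF148 peak, or 29.3% of 41 (17.6 to 44.5%), against the 21.4% of the whole p63 list. Among ZNF148 peaks it was 19.0% (11.2 to 30.4%), against 12.2% of the whole list. The intervals of both include the background, so the difference is within counting error. In 9 of the 12 pairs the best summits lay within 25 bp, and the median distance was 9 bp. For overlapping p63 peaks on chromosomes 1 to 22 and X the median distance was 15 bp. Close summits are thus not particular to these contigs. A ZNF148 summit within 25 bp was found for 21.95% of the 41 p63 peaks, against 13.7% of the whole p63 list. The Wilson interval of the first share includes the second. The counting intervals of the p63 and ZNF148 folds overlapped in 12 of 12 pairs, and p63 had the higher fold in 6 and ZNF148 in 6. At these pairs the fold adds 1 to backgrounds of 1.27 to 3.96 fragments for p63 and of 0.386 to 1.20 for ZNF148. The added 1 thus lowers the ZNF148 folds more, so like folds do not show that both were equally enriched. Across the 12 sites the folds rose together (Spearman's rho 0.88), as a description of sites from 1 library each that may share 1 control. The paired peaks were stronger than the rest, with medians of 18.2 for p63 and 20.0 for ZNF148, against 5.74 for the 29 other p63 peaks and 7.94 for the 51 other ZNF148 peaks. All peaks with a background of 10 or more were among the others, so this split also separates sites of different background. On chromosomes 1 to 22 and X overlapping peaks had the higher median too. It was 26.2 against 11.7 for p63 and 23.8 against 9.26 for ZNF148.

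The highest pair lay on gl000208, a contig of chromosome 19. The p63 peak at chr19_gl000208_random:62860-63318 had a fold of 56.4 (49.0 to 64.6) from 205 fragments over 2.65 and a −log10 q of 297. The ZNF148 peak at chr19_gl000208_random:62765-63233 had a fold of 63.02 (52.0 to 75.7) from 113 fragments over 0.809. Their summits were 8 bp apart. The p63 peak ranked 133 in its list, the best of any p63 contig peak. The same contig held 2 more pairs, with folds of 20.6 for p63 and 25.5 for ZNF148 in the first, at p63 position 65606 to 65879, and of 5.92 and 9.55 in the second, at 35374 to 35528.

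Strong pairs were also found at sites of low background. On chr1_gl000192_random the p63 peak at 232079 to 232398 had a fold of 50.3 (41.5 to 60.4) and its ZNF148 partner 35.4 (26.3 to 46.6), with summits 16 bp apart. On chrUn_gl000211 the p63 peak at 11607 to 11920 had a fold of 47.7 (39.7 to 56.8) and its partner 36.9 (28.2 to 47.5). On chrUn_gl000219 the p63 peak at 34397 to 34706 had 42.8 (34.8 to 52.2) and its partner 46.9 (36.3 to 59.7). These 3 sites had backgrounds of 1.27, 1.62 and 1.27 fragments in the p63 list, at or near its minimum. On chr17_gl000205_random the peaks at 129414 to 129701 had 29.5 for p63 and 26.3 for ZNF148.

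The remaining pairs were weaker. On chrUn_gl000214 a pair at 59200 to 59453 had folds of 15.9 for p63 and 13.5 for ZNF148, and one at 45108 to 45270 had 7.13 and 14.6. On chrUn_gl000246 a pair at 30481 to 30714 had 14.6 for p63 and 14.4 for ZNF148, with summits at the same base. On chrUn_gl000222 a pair at 45716 to 45877 had 10.6 for p63 and 10.8 for ZNF148. On chrUn_gl000221 a pair at 22780 to 22967 had 10.3 for p63 and 8.36 for ZNF148, but the most significant ZNF148 peak of that contig, at 65517 to 65789 with a fold of 17.0, had no p63 partner. The lowest of these 5 p63 folds, 7.13, had an interval of 4.38 to 11.1, which still overlaps the 9.28 to 21.95 of its ZNF148 partner.

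**Figure D4:**
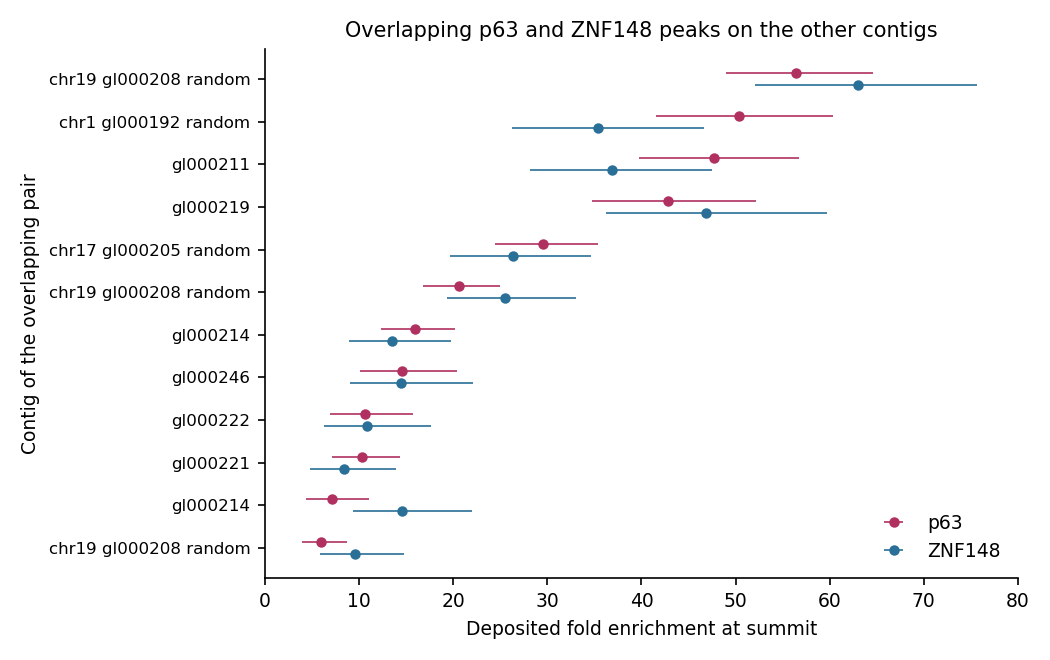
Each row is 1 of the 12 overlapping pairs on the contigs other than gl000220, ordered by p63 fold, with the deposited fold enrichment (x) of p63 in red above that of ZNF148 in blue. Bars are exact 95% Poisson intervals of the pileup with the background held fixed. The bars of p63 and ZNF148 overlap in every row, but the 1 added to the background lowers ZNF148 folds more than p63 folds.

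The 9 contigs with a pair also held 11 p63 peaks without a partner, with folds of 2.198 to 13.1, and 9 such ZNF148 peaks, with folds of 5.77 to 17.0. On chrUn_gl000214 5 of the 7 p63 peaks had none. Over the whole lists only 21.4% of p63 peaks and 12.2% of ZNF148 peaks overlapped the other list. A peak without a partner is thus the usual case and not particular to these contigs.

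Peaks of both lists without any overlap were found on 7 further contigs, 5 of which had 1 peak of each list. On chr1_gl000191_random the best p63 peak, at 56004 to 56168, had a fold of 7.06 and the best ZNF148 peak, at 50207 to 50493, one of 17.3. On chr4_gl000194_random the p63 peak at 116615 to 116804 had 8.82 and the ZNF148 peak at 28260 to 28570 had 18.6. On chrUn_gl000218 they had 12.7 at 98985 to 99187 for p63 and 10.5 at 155939 to 156191 for ZNF148. The nearest summits of the 2 lists were 5368, 1868 and 56974 bp apart on these contigs. On chrUn_gl000212 the best folds were 3.36 for p63 and 13.7 for ZNF148, on chrUn_gl000223 they were 5.74 and 6.88, and on chrUn_gl000242 they were 7.50 and 7.94, with summits 537 bp apart. On chrUn_gl000228 the p63 peak had a fold of 2.49 over a background of 30.3 fragments, and the ZNF148 peak a fold of 5.77 over 0.386.

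Among the 7 contigs with p63 peaks alone, 2 held strong ones. The peak at chrUn_gl000224:97525-97882 had a fold of 38.2 from 116 fragments over 2.06, and that at chrUn_gl000244:22351-22610 one of 21.998 from 108 over 3.96. A second peak on chrUn_gl000224 had a fold of 2.45. The single peaks of chrUn_gl000248 and chr9_gl000201_random had folds of 9.71 and 7.39. The other contigs with p63 alone had low folds. On chrUn_gl000225 4 peaks had folds of 2.64 to 4.97 over backgrounds of 6.04 to 21.8 fragments, on chrUn_gl000243 the fold was 4.33, and on chrUn_gl000216 it was 2.96 over 13.8 fragments.

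The strongest contig peak of ZNF148 by q had no p63 partner. It lay at chr11_gl000202_random:12896-13452 with a fold of 42.7 from 221 fragments over 4.19 and a −log10 q of 283.5, and ranked 28 in its list. The contig carried 7 ZNF148 peaks with folds of 4.43 to 42.7 and no p63 peak. On chr7_gl000195_random 4 ZNF148 peaks had folds of 7.53 to 27.4. Single peaks had folds of 23.0 on chrUn_gl000229, 21.6 on chrUn_gl000245, 13.7 on chrUn_gl000240, 11.5 on chrUn_gl000233 and 10.6 on chr17_gl000204_random. Folds under 8 were found on chrUn_gl000236 (7.94), chr17_gl000206_random (at most 7.94), chrUn_gl000217 (6.69) and chrUn_gl000234 (6.03). The last 2 contigs had backgrounds above the highest of ZNF148 on gl000220, 34.5 fragments: 7 ZNF148 peaks on chrUn_gl000226 had folds of 1.79 to 1.94 over 49.7 to 74.9 fragments, and 1 on chr9_gl000199_random had a fold of 2.57 over 47.6.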

How the data were processed

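Each antibody library has 1 peak list in narrowPeak order without a header. Per the submitters' processing notes the build was hg19 and the tools included MACS2 2.2.6 and Bowtie2 2.3.4.3, with SAMtools 1.7, MultiQC 1.12 and FastQC 0.11.9. No settings are named. The sources used here do not give the control, duplicate removal or the placing of reads that match several positions. The fold (a ratio), the −log10 p, the −log10 q and the score are deposited values of the authors. The score repeats −log10 q, times 10 and cut to a whole number, and adds nothing. Both lists start at a −log10 q just above 3 (3.01 in p63, 3.02 in ZNF148).

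Positions are 1-based. Rows with the same start and end were joined into 1 peak, represented by the summit of highest q. Pileup and background were solved per row from the deposited fold and −log10 p by MACS2's known formulas, a pseudocount of 1 and the Poisson tail above the pileup, over whole pileups. In the ZNF148 list 106 rows had more than 1 solution and the closest was taken, and 0 contig rows had. Whole-list overlaps were checked with bedtools 2.31.1, which gave the same 4632 p63 and 4647 ZNF148 peaks. Python 3.11.15, numpy 2.4.6, pandas 2.3.3, scipy 1.17.1 and matplotlib 3.10.9 were used, and the functions were tested on simulated data. Rows on chromosome Y, 96 and 68, stayed in the whole-list shares and in no other comparison. Library depth is not in the lists. On gl000220 the 10 most significant peaks of each list were to be named, and on other contigs the most significant peak of each contig. The members, lists and limits were chosen with earlier results of these data known. Alternatives were higher limits on q and fold, counting all summits, merging neighbours, other overlap and distance limits, and lists of equal length.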

Additional observations from a re-analysis of the deposited data

How the results depend on the processing

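Among 63 alternative values 15 left the 95% interval of the value reported, or for counts and the repeat distance changed beyond a set margin, while 48 did not and 0 reversed. On gl000220 the 31 p63 and 40 ZNF148 peaks became 75 and 75 with every summit counted and 14 and 15 with peaks within 500 bp merged, and 4 p63 peaks kept a fold of 3 or more. With a −log10 q of at least 10, the other contigs kept 26 p63 and 39 ZNF148 peaks. The 58.1% of p63 peaks on gl000220 that overlapped ZNF148 became 19.4% when 50% of both peaks had to be covered. The 12.9% with close summits became 32.3% within 50 bp and 48.4% within 100 bp, against 16.3% and 18.7% of the whole p63 list. Any summit of a peak counted in these shares, and peaks on gl000220 more often had several. The recurring distance was 3831 bp for p63 alone (12 pairs, as many as at 43964 bp), 1578 bp with matching within 10 bp and 1099 bp with matching within 100 bp. With distances of at least 10 kb, a limit added after seeing the data, these became 43970, 43944 and 43974 bp. Counting the Poisson tail at the pileup itself gave whole pileups in 0.616% of p63 and 1.18% of ZNF148 rows. No paired analysis was possible because each antibody has 1 list. Close peaks in the blocks limit how far single summits can be told apart.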

Other observations

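On the scale of control fragments, which allows fractions, the background varied widely between contigs. The lowest value was 1.28 control fragments in the p63 list and 1.29 in the ZNF148 list. On gl000220 the median over the 75 summits was 50.1 in each list, and the highest was 111 for p63 and 115 for ZNF148. The 7 ZNF148 summits on chrUn_gl000226 had a median of 229 control fragments and the summit on chr9_gl000199_random had 159. The p63 summits on chrUn_gl000225 had a median of 18.5 and the one on chrUn_gl000228 had 30.7. The highest background of the p63 list, 109.8 fragments, was on gl000220, and that of the ZNF148 list, 89.6 fragments, was on chromosome 7.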
